A study of Mus musculus with 12 samples.

Results

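Transcripts of immunoglobulin and B cell genes were measured in RNA from cells labelled as sorted CD8 T cells. The 9 genes were taken by symbol from the 35855 genes of the transcript tables: the heavy chain constant genes Ighg2b, Ighg2c, Ighm and Ighd, the kappa light chain constant gene Igkc, the B cell receptor signalling chains Cd79a and Cd79b, the B cell surface gene Ms4a1, and Jchain. Ighg2b was chosen because its level differed between genotypes before transplant in an earlier reading of the same libraries, so that contrast is described below without a test, and the other 8 genes were chosen to go with it. The question was whether Ighg2b differed beyond the other B cell genes.

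The series held 12 libraries in 4 groups of 3. TCF-1 cKO mice (TCF-7 cKO in the labels, for the gene Tcf7) carried a floxed allele that CD4cre removed in T cells, so B cells of these mice kept the gene; WT mice lacked the deletion, and both donors were of the C57BL/6 strain. Pre-transplant libraries are labelled as CD8 T cells sorted from donor spleens, a label their markers go against. Post-transplant libraries came from H2Kb+ donor T cells, sorted from the spleens of lethally irradiated BALB/c recipients 7 days after they had received donor CD3 T cells, which the study's methods say went in with WT bone marrow depleted of T cells. The source given for TCF-1 cKO replicate 2 after transplant is CD4 rather than CD8 T cells. In that library Cd8a stood at 432 CPM (counts scaled to 1000000 counts assigned to genes) and Cd4 at 1.42 CPM.

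A B cell makes antibody from a heavy and a light chain. Each heavy chain transcript joins a rearranged V segment to a constant gene, first Ighm and Ighd, and after class switching a downstream gene such as Ighg2b, Ighg2c, Ighg1, Ighg3 or Igha. The same constant gene gives a membrane form, which sits in the B cell receptor with Cd79a and Cd79b, or a secreted form, which plasma cells make in great amount. Jchain links secreted IgM and IgA into polymers, and Ms4a1 (CD20) is found on B cells but is lost in plasma cells.

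The IgG constant genes are near copies of each other, which bears on how reads were divided among them. The hinge, the flexible joint between the antigen-binding arms and the stem, is where their sequences differ most in length, so the hinge exons (exon 2) are shown here as the stretch that tells them apart. All lie on the minus strand of chromosome 12 in GRCm38, Ighg2b at chr12:113307261-113307326, Ighg2c at chr12:113288263-113288325, Ighg1 at chr12:113329844-113329882 and Ighg3 at chr12:113360529-113360576, and all are written 5′ to 3′ from GENCODE M21 transcripts.
Ighg2b: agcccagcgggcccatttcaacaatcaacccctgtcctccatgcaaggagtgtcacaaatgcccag
Ighg2c: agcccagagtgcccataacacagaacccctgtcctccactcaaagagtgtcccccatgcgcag
Ighg1: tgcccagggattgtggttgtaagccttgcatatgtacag
Ighg3: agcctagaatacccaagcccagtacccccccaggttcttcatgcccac
The hinge measured 66 bases in Ighg2b, 63 in Ighg2c, 48 in Ighg3 and 39 in Ighg1. Outside the hinge, Ighg2b and Ighg2c were identical at 87.6% of positions in the CH1 exon, 94.2% in CH2 and 80.3% in CH3. Of the 31-base words of the secreted Ighg2b transcript, the length Kallisto matches on by default, 12.7% also occurred in another gene, 125 of them in Ighg2c. The values of the IgG genes therefore carry some uncertainty as to which gene a read came from, whereas Ighm and Igkc shared no such word with any gene.

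The secreted and membrane forms of Ighg2b differ at their 3′ end, which is shown because the Ighg2b transcripts of the genotypes differed in form. Both stretches open with the last 30 bases of the CH3 exon that they share, in lower case. Capitals mark what follows: in the secreted form, the last codons and the stop codon of the extended exon (chr12:113306389-113306426 for the whole stretch), and in the membrane form, the whole of exon 5 (chr12:113304909-113305039), which encodes the start of the membrane part.
Ighg2b secreted: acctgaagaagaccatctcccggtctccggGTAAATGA
Ighg2b membrane: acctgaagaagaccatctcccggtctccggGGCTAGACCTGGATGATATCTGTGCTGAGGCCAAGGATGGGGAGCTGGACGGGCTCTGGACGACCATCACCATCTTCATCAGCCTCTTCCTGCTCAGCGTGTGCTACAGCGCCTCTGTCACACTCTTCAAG
Of the 31-base words of the secreted transcript, 97 occurred in no other transcript, against 1455 for the longer membrane transcript.

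Before any comparison, the libraries were set against markers of the cells they could hold. The 6 libraries labelled as sorted CD8 T cells before transplant went against that label. Over 22 B cell identity genes (Cd22, Pax5, Fcer2a and the like), the summed level was 6800 to 10010 CPM in these 6 libraries, with none of the 22 at 0, against 40.3 to 60.6 CPM in the 6 post-transplant libraries, where 1 gene, Vpreb3, was at 0 in 1 library. The 4 MHC class II genes summed to 18577 to 46073 CPM before transplant and 41.5 to 235 CPM after. Over 8 CD8 T cell genes the pre-transplant sums were 955 to 1278 CPM in TCF-1 cKO against 2067 to 2523 CPM in WT libraries, against 5169 to 7500 CPM after transplant. Hemoglobin and other erythroid genes summed to 4450 to 26434 CPM and 7 myeloid genes to 1373 to 3445 CPM before transplant, so markers of several other spleen cells were present. Because these libraries are bulk RNA, fewer cells of a type and less RNA per cell cannot be told apart. What follows for the pre-transplant groups therefore describes libraries labelled CD8 T cells in which the B cell list summed higher than the CD8 T cell list. The comparison of genotypes at day 7 does not use these libraries, except in an alternative fit over all 12 libraries.

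**Figure D1:**
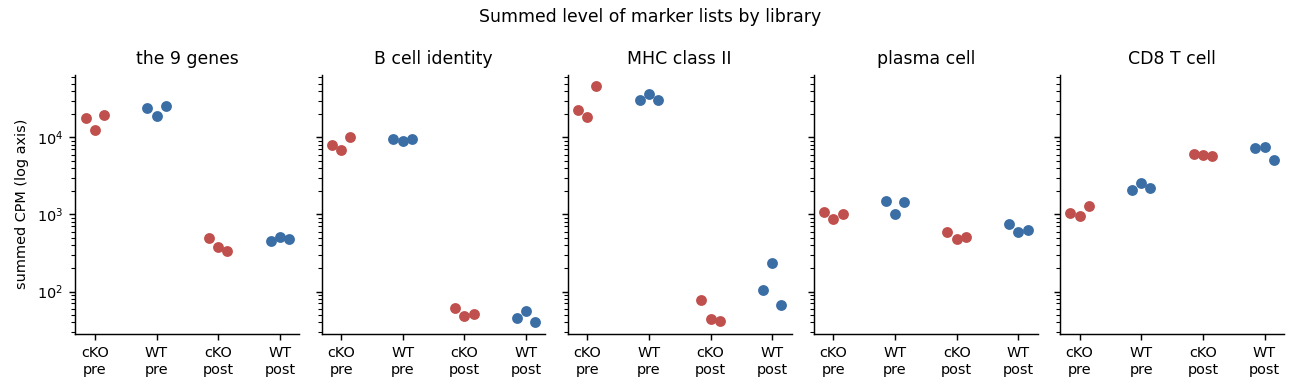
Summed level of each marker list in every library (points; CPM on a log axis), by group; cKO is TCF-1 cKO. B cell identity genes summed to 6800 to 10010 CPM before transplant and to 40.3 to 60.6 CPM after, while the CD8 T cell list was higher after transplant.

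The deleted gene itself, Tcf7, stood at 56.8 to 97.1 CPM in TCF-1 cKO against 115 to 205 CPM in WT libraries before transplant. At day 7 it was 9.0, 9.48 and 9.31 CPM in TCF-1 cKO and 17.2, 12.1 and 6.89 CPM in WT. The library labelled WT replicate 3 thus lay lower than each TCF-1 cKO one, against the order of the labels. Tcf7 was not called between genotypes at day 7 (log2 fold change -0.91, adjusted p = 0.308, edgeR). Its level therefore does not settle the genotype of a library there. Depth differed as well, with 4499032 to 9535215 counts assigned to genes in TCF-1 cKO pre-transplant, 18897999 to 28765060 in WT pre-transplant and 18134802 to 32551712 in the post-transplant libraries, so that 3 counts amount to between 0.0922 and 0.667 CPM.

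Together the 9 genes took 1.80%, 1.25% and 1.95% of the counts in the TCF-1 cKO pre-transplant libraries and 2.43%, 1.90% and 2.55% in the WT ones. At day 7 post-transplant the shares were 0.0489%, 0.0377% and 0.0332% in TCF-1 cKO and 0.0446%, 0.0512% and 0.0480% in WT. Exact binomial 95% intervals reached no further than 0.0325% and 0.0521% in the post-transplant libraries, and they cover counting error only.

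**Figure D2:**
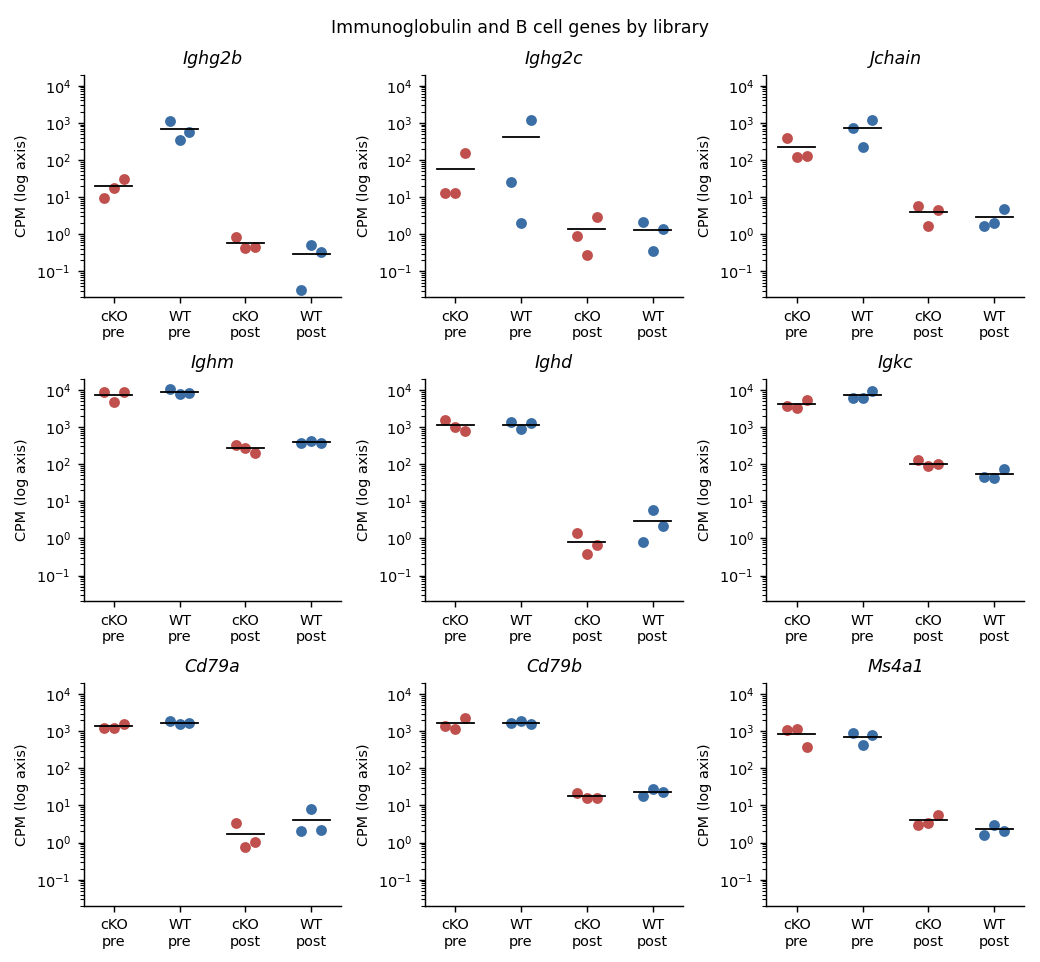
Level of each of the 9 genes in every library (points; CPM on a log axis), with the mean of each group as a line; cKO is TCF-1 cKO. Ighg2b lay at 9.68 to 30.4 CPM in TCF-1 cKO against 350 to 1099 CPM in WT libraries before transplant without overlap, whereas Ighm, Ighd, Cd79a, Cd79b and Ms4a1 overlapped, and every gene had lower group means after transplant.

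Before transplant, Ighg2b was the member with the widest gap between genotypes. It measured 9.68, 18 and 30.4 CPM (51, 81 and 290 counts) in the libraries from TCF-1 cKO mice and 1099, 350 and 576 CPM (31625, 6623 and 14373 counts) in those from WT mice. The groups did not overlap, and their means, 19.4 ± 10.4 and 675 ± 384 CPM (SD, n = 3), differed 34.9-fold. These are the values by which Ighg2b was chosen, so they carry no test. Across all 18757 genes tested in that contrast, 6.33% had TCF-1 cKO libraries wholly below WT and 0.0213% were called lower at a false discovery rate (FDR) of 0.1 by edgeR.

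The members that mark B cells as such lay closer together in the genotypes than Ighg2b. Cd79a, which with Cd79b carries the signal of the B cell receptor, measured 1234, 1190 and 1600 CPM in TCF-1 cKO and 1845, 1539 and 1670 CPM in WT libraries. Cd79b measured 1397, 1182 and 2271 CPM in TCF-1 cKO and 1642, 1931 and 1543 CPM in WT. Ms4a1 measured 1093, 1126 and 366 CPM in TCF-1 cKO and 909, 426 and 785 CPM in WT. All 3 overlapped between genotypes, and their WT means in CPM were 1.26, 1.05 and 0.820 times the TCF-1 cKO means. In the edgeR fit all 3 were lower in TCF-1 cKO, with log2 fold changes of -0.65, -0.37 and -0.12, and none was called. The 22 B cell identity genes all had a lower fitted level in TCF-1 cKO, with a median log2 fold change of -0.52 against 0.05 over all genes (0.39 with scaling by library totals), and none was called.

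The unswitched heavy chains also overlapped. Ighm, the constant gene of IgM, measured 8690, 4679 and 8768 CPM in TCF-1 cKO and 10594, 7730 and 8057 CPM in WT. Ighd, the constant gene of IgD on mature naive B cells, measured 1570, 985 and 788 CPM in TCF-1 cKO and 1336, 882 and 1259 CPM in WT. Igkc did separate, with 3632, 3159 and 5357 CPM in TCF-1 cKO and 6110, 5944 and 9254 CPM in WT, a ratio of means of 1.75. It was not called, and 6.33% of all genes tested had TCF-1 cKO libraries wholly below WT. Jchain overlapped, at 400, 122 and 131 CPM in TCF-1 cKO and 746, 222 and 1178 CPM in WT.

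Several of the other class-switched genes varied widely among libraries of 1 group. Ighg2c, the nearest copy of Ighg2b, measured 12.7, 12.9 and 151 CPM in TCF-1 cKO and 25.6, 1.96 and 1214 CPM in WT. The highest WT library thus held 620 times the lowest, against 3.14 times for Ighg2b in either genotype and 3.74 and 5.97 times for Ighg3 in TCF-1 cKO and WT. Ighg1 was high in 1 library of each genotype, at 466 CPM in TCF-1 cKO replicate 2 and 472 CPM in WT replicate 3, and at 4.55 to 9.02 CPM in the other 4. Igha, the constant gene of IgA, measured 171, 36.9 and 742 CPM in TCF-1 cKO and 2141, 1165 and 8761 CPM in WT. Ighg3 measured 10.8, 40.5 and 33.2 CPM in TCF-1 cKO and 610, 102 and 112 CPM in WT. Igha and Ighg3 thus separated in the direction of Ighg2b, with ratios of means of 12.7 and 9.75, whereas Ighg1 had a ratio of 1.01 and Ighg2c overlapped. Neither Igha nor Ighg3 was called, and 6.33% of all genes tested had TCF-1 cKO libraries wholly below WT. The lambda constant genes Iglc1, Iglc2 and Iglc3 overlapped, with ratios of 1.06, 1.10 and 1.00.

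**Figure D3:**
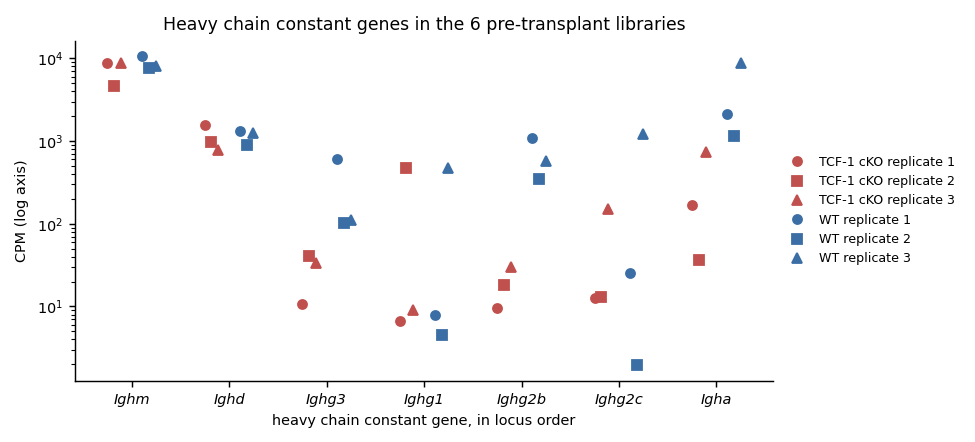
Level of 7 heavy chain constant genes (CPM on a log axis) in the 6 pre-transplant libraries, 1 marker shape per replicate and 1 colour per genotype. Ighm and Ighd overlapped between genotypes, Ighg2b, Ighg3 and Igha lay lower in all TCF-1 cKO libraries, and Ighg1 and Ighg2c followed single libraries.

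Depth and marker levels differed between the pre-transplant genotypes beside these genes. The TCF-1 cKO libraries held fewer counts, as given above, and a lower CD8 T cell sum. A list of 12 plasma cell genes summed to 874 to 1082 CPM in TCF-1 cKO against 1023 to 1486 CPM in WT. Of its 11 tested genes 10 were lower and 1 was higher in the fit, and none was called. Derl3, a protein disposal gene, measured 1.90, 9.78 and 11.5 CPM in TCF-1 cKO and 31, 20.9 and 18.2 CPM in WT, where 6.33% of all genes had TCF-1 cKO libraries wholly below WT. The 1 higher gene, Fkbp11, measured 32.7, 40.0 and 26.2 CPM in TCF-1 cKO and 13.2, 15.9 and 11.7 CPM in WT. Mzb1, a chaperone of antibody assembly, overlapped at 162, 204 and 282 CPM in TCF-1 cKO and 264, 253 and 246 CPM in WT. The part of depth, cell makeup and plasma cell transcripts in the Ighg2b values was not tested.

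Ighg2b was also set against its fellow genes, as a description of the contrast it was chosen from. For every 1000 counts of the other 8 genes, the TCF-1 cKO pre-transplant libraries held 0.537, 1.45 and 1.57 counts of Ighg2b and the WT ones 47.4, 18.8 and 23.1. On the log2 scale with 1 count added to each side, the ratio was -9.86 ± 0.85 in TCF-1 cKO and -5.19 ± 0.70 in WT (SD, n = 3), a difference of -4.66. With Ighm alone, with Cd79a, Cd79b and Ms4a1, or with Igkc alone as the denominator the difference was -4.80, -5.00 and -4.28. Over Cd79a, Cd79b and Ms4a1, the log2 ratio of Igha was -4.51 ± 2.02 in TCF-1 cKO and -0.55 ± 1.5 in WT, and that of Ighg3 was -7.27 ± 1.02 and -4.42 ± 1.36 (SD, n = 3), so these class-switched genes lay lower in TCF-1 cKO as well. Whether the gap of Ighg2b differed from theirs was not tested.

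The Ighg2b transcripts of the genotypes differed in form. In the WT pre-transplant libraries the secreted form (shown above) took 99.2%, 95.1% and 91.8% of Ighg2b counts, and in the TCF-1 cKO ones 54.4%, 27.1% and 58.3%. Counts are not scaled for transcript length, which is 1114 bases for the secreted and 2566 for the membrane form. These are therefore not shares of transcripts. In CPM, the secreted form measured 1091, 333 and 528 in WT and 5.23, 4.86 and 17.7 in TCF-1 cKO. The membrane form measured 8.87, 17.2 and 47.4 CPM in WT and 4.38, 13.1 and 12.7 CPM in TCF-1 cKO. The genotypes therefore overlapped in the membrane form and lay far apart in the secreted one. The TCF-1 cKO shares rest on 51 to 290 counts, with the exact 95% interval of the lowest share running from 17.9% to 38.2%. That interval covers counting error only, and leaves out the uncertainty in dividing reads between the forms.

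In the other heavy chain genes the secreted shares of the genotypes overlapped. Lengths of the forms differ from gene to gene, so these shares of counts can be compared only within a gene. The secreted share of Igha was 96.2%, 51.5% and 99.7% in TCF-1 cKO and 98.8%, 99.0% and 99.6% in WT. That of Ighg3 was 96.1%, 49.1% and 86.1% in TCF-1 cKO and 92.2%, 66.0% and 80.6% in WT. Ighm ran from 27.7% to 53.5% in TCF-1 cKO and from 49.4% to 60.6% in WT. In each of these 3 genes TCF-1 cKO replicate 2 had the lowest share of the 6 libraries. Ighg1 was 40.3%, 99.8% and 98.5% secreted in TCF-1 cKO and 20.9%, 98.3% and 96.0% in WT, and Ighg2c 100%, 74.3% and 100% in TCF-1 cKO and 70.4%, 100% and 100% in WT. Ighd was almost wholly in its membrane form, with a secreted share of 0.204% to 0.655% over the 6 libraries.

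**Figure D4:**
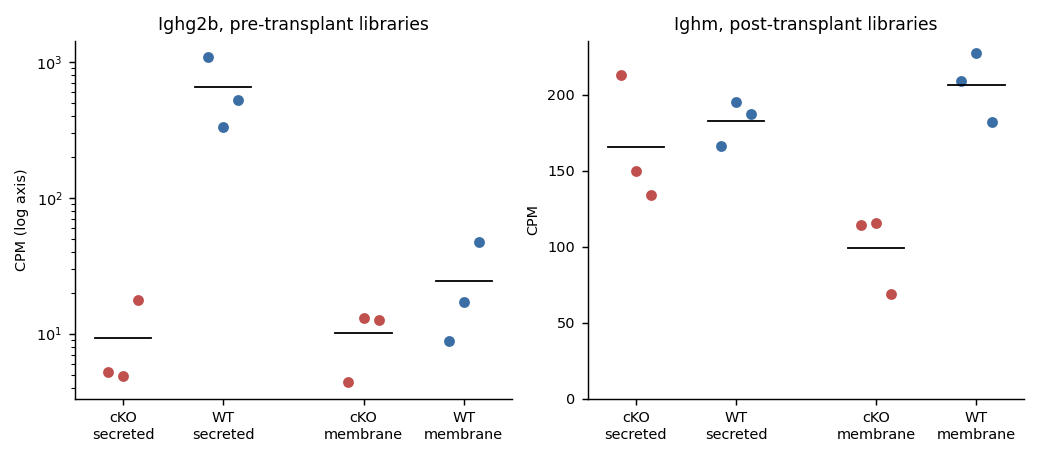
Secreted and membrane transcripts of Ighg2b in the pre-transplant libraries (left; CPM on a log axis) and of Ighm in the post-transplant libraries (right; CPM from 0), with points for libraries and lines for group means. Secreted Ighg2b was 333 to 1091 CPM in WT and 4.86 to 17.7 CPM in TCF-1 cKO, while membrane Ighm at day 7 was 68.8 to 115 CPM in TCF-1 cKO against 182 to 227 CPM in WT.

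Per transcript length, Igkc and Ighm led the members before transplant. In WT libraries the mean was 23280 TPM (transcripts scaled for length and library size) for Igkc and 6359 for Ighm, followed by Cd79b at 1676 and Cd79a at 1336. Ighg2b (743 ± 466), Ighd (718 ± 164), Jchain (601 ± 408) and Ighg2c (469 ± 786 TPM, SD, n = 3) did not differ beyond their spread, and Ms4a1 had the lowest mean at 245. The mean of Ighg2c rested on replicate 3: its libraries held 28.6, 2.07 and 1377 TPM, against 319, 147 and 268 TPM for Ms4a1. In TCF-1 cKO libraries Igkc (11705), Ighm (4810), Cd79b (1464) and Cd79a (976) led in the same order, followed by Ighd (634), Ms4a1 (277), Jchain (162), Ighg2c (58.2) and Ighg2b (13.1 TPM).

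V segment transcripts were spread over many genes in the pre-transplant libraries. Of 185 Ighv genes, 89 to 104 had at least 3 counts in each of the 6 libraries, and of 160 Igkv genes, 95 to 104. The leading Ighv gene took 11.4% to 20.2% of Ighv counts in TCF-1 cKO and 11.2% to 13.2% in WT. The leading Igkv gene took 35.8% in TCF-1 cKO replicate 1, where it was Igkv16-104, and 9.56% to 16.5% in the other 5. The leading gene differed from library to library: the Ighv leaders were Ighv1-55, Ighv5-17 and Ighv1-82 in TCF-1 cKO and Ighv8-5, Ighv1-55 and Ighv1-82 in WT.

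Over the 12 libraries, the genes whose level ran most like that of Ighg2b were Pakap, Ighv1-39, Nsg2, Ighv1-53 and Smim5, with Pearson's r of 0.972 to 0.978 on log2(CPM + 1) among 21526 genes searched. The sum of the other 8 members ran closely with Cyp4f18, Siglecg, Fcer2a and Iglc1, with r of 0.996 to 0.998. These libraries share the step between pre- and post-transplant, which alone gives a high r to any gene that follows it. Over the 6 pre-transplant libraries alone, Cd79a correlated with Ighg2b at r = 0.85, Igkc at 0.82 and Jchain at 0.65, whereas Ighd was at 0.08 and Ms4a1 at -0.18. The 6 points include both genotypes, so the difference between them enters each r.

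At day 7 every member had a lower group mean than before transplant in both genotypes, and the size of the drop differed from gene to gene. Since all pre-transplant libraries held B cell transcripts at high level, the comparison of day 7 with pre-transplant cannot be had without them. Calls of lower level at day 7 therefore restate that high level and were no separate test of a change at day 7. In WT libraries, 8 of the 8 members other than Ighg2b were called lower at day 7 than before transplant (edgeR's quasi-likelihood test, Benjamini-Hochberg FDR of 0.1), where 10.3% of all 16790 genes tested were called lower. In TCF-1 cKO libraries it was again 8 of 8, where 16.8% of 18535 genes were called lower. All these pre-transplant libraries are the ones that chose Ighg2b, which is described only: its fitted log2 fold change was -10.2 in WT and -3.56 in TCF-1 cKO.

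The B cell receptor chain Cd79a fell by 7.56 ± 0.86 on the log2 scale in WT (SE, adjusted p = 0.000937, edgeR), to 2.03, 8.11 and 2.21 CPM, and fell by 8.02 ± 0.78 in TCF-1 cKO (adjusted p = 0.000165), to 3.45, 0.763 and 1.02 CPM. Ms4a1 fell by 7.28 in WT, to 1.63, 3.06 and 2.10 CPM, and fell by 6.09 in TCF-1 cKO, to 2.96, 3.43 and 5.59 CPM. Ighd fell by 7.54 in WT and fell by 8.78 in TCF-1 cKO. Of the 22 B cell identity genes, 22 were called lower in either genotype, with medians of -7.09 in WT and -6.11 in TCF-1 cKO. Of all genes, 10.3% in WT and 16.8% in TCF-1 cKO were called lower. These calls restate the high level of the list before transplant, given above. In the day 7 genotype comparison only 19 of the 22 passed the filter on low counts. The plasma cell list was mixed: 3 of 11 tested genes were lower and none higher in WT, and 5 of 12 were lower and 3 higher in TCF-1 cKO, where 9.7% and 19.7% of all genes were called higher in WT and in TCF-1 cKO. Those higher were Prdm1, Slamf7 and Txndc5, of which Prdm1 and Slamf7 are also used by effector T cells.

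Ighm fell least. Its log2 fold change was -3.50 ± 0.45 in WT (SE, adjusted p = 0.00149, edgeR) and -3.27 ± 0.47 in TCF-1 cKO (adjusted p = 0.000965), so that 375, 422 and 369 CPM remained in WT and 327, 265 and 203 CPM in TCF-1 cKO. Igkc fell by 6.13 in WT, to 45.3, 41.5 and 75.4 CPM, and fell by 3.77 in TCF-1 cKO, to 126, 88.3 and 98.0 CPM. Cd79b fell by 5.18 in WT, to 18.3, 28.5 and 22.5 CPM, and fell by 4.99 in TCF-1 cKO, to 21.3, 16.4 and 16.1 CPM. The proportions among the members were therefore not those of the pre-transplant libraries. For each library the log2 ratio of Ighm to the sum of Cd79a, Cd79b and Ms4a1 was 0.42 to 1.27 before transplant and 3.15 to 4.09 at day 7, without overlap, and that of Ighd was -2.43 to -1.25 before and -5.57 to -2.76 after.

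Jchain fell by 7.13 in WT, to 1.66, 2.03 and 4.91 CPM, and fell by 4.12 in TCF-1 cKO, to 5.82, 1.69 and 4.45 CPM. Ighg2c had fitted changes of -7.54 ± 2.0 in WT (SE, adjusted p = 0.0320, edgeR) and -4.07 ± 1.27 in TCF-1 cKO (adjusted p = 0.0387). Both calls were lost under several alternatives. Without WT pre-transplant replicate 3 the change was -2.54 (adjusted p = 0.259, edgeR), and without TCF-1 cKO pre-transplant replicate 3 it was -1.34 (adjusted p = 0.326, edgeR). The TCF-1 cKO call was also lost without post-transplant replicate 1 (-3.87, adjusted p = 0.124) or replicate 2 (-3.57, adjusted p = 0.120, edgeR). Scaling by library totals moved the median of all genes from -0.30 to -1.25 in WT and from -0.29 to -1.89 in TCF-1 cKO, and all 8 members stayed lower with it.

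Between genotypes at day 7, none of the 8 members that could be tested was called at an FDR of 0.1 by edgeR, where 15.4% of all 16026 genes were called lower and 2.51% higher in TCF-1 cKO. At an unadjusted p under 0.05 there were 2, Ighm and Ighd, where 4511 of all 16026 genes were under it. These are also the 2 that the DESeq2 Wald test called, where it called 3456 of the 16026 genes lower and 1069 higher. Ighg2b did not pass the filter on low counts. Over all genes, the number called was itself unstable: it was at most 2 in either direction when any library other than the one labelled WT replicate 3 was left out, and 3531 lower and 1768 higher without that library.

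Ighm was lower in all TCF-1 cKO than in all WT libraries at day 7, at 327, 265 and 203 CPM against 375, 422 and 369 CPM. Its fitted log2 fold change was -1.05 ± 0.42 (SE, adjusted p = 0.15, edgeR). Igkc lay the other way, at 126, 88.3 and 98.0 CPM in TCF-1 cKO against 45.3, 41.5 and 75.4 CPM in WT, with a log2 fold change of 0.54 ± 0.40 (adjusted p = 0.405, edgeR) that turned to -0.17 with an offset for GC content and length. Of all genes tested, 15.7% had TCF-1 cKO libraries wholly below WT and 27% wholly above. Ighd measured 1.40, 0.382 and 0.653 CPM in TCF-1 cKO against 0.799, 5.83 and 2.21 CPM in WT, overlapping, with a log2 fold change of -2.48 ± 0.95 (adjusted p = 0.134, edgeR) that was -1.09 without WT replicate 2. When the library labelled WT replicate 3 was omitted, Ighm was called lower at -1.29 (adjusted p = 0.0446, edgeR) and Ighd at -2.84 (adjusted p = 0.0840, edgeR). When TCF-1 cKO replicate 2, with its CD4 source label, was omitted, Ighm was at -1.10 (adjusted p = 0.288, edgeR) and Ighd at -2.18 (adjusted p = 0.300, edgeR).

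The remaining members overlapped between genotypes at day 7. Cd79a had a log2 fold change of -1.89 ± 0.92 (SE, adjusted p = 0.217, edgeR), which was -0.60 without WT replicate 2, -2.97 without TCF-1 cKO replicate 1 and -0.37 with the GC and length offset. The change was -0.87 ± 0.48 for Cd79b (SE, adjusted p = 0.270, edgeR), 0.29 ± 0.60 for Ms4a1 (adjusted p = 0.775), 0.12 ± 0.63 for Jchain (adjusted p = 0.918) and -0.29 ± 0.96 for Ighg2c (adjusted p = 0.865). Of the 22 B cell identity genes 19 could be tested and none was called, with 11 lower and 8 higher and a median of -0.20. Only 1 of the 19 (Cxcr5) was at an unadjusted p under 0.05, where 4511 of all 16026 genes were. The median over all genes was 0.15, and 0.54 with scaling by library totals. Of the 10 plasma cell genes tested, Xbp1 (-1.69) and Edem2 (-3.29), which serve the secretory pathway in many cell types, were called lower. Of the 4 MHC class II genes 1, H2-Ab1, was called lower (-2.23, adjusted p = 0.0912, edgeR). Of the 7 myeloid genes 1, Lyz2, was called higher (2.16, adjusted p = 0.0964, edgeR). Of all genes, 15.4% were called lower and 2.51% higher, calls that were unstable to omitted libraries as given above. The part of these genes in the members' values was not tested.

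The forms of Ighm differed between genotypes at day 7, a feature singled out after the values were seen. The p-values given with it are therefore a description and could not test it. The secreted form took 65.1%, 56.5% and 66.0% of Ighm counts in TCF-1 cKO and 44.3%, 46.1% and 50.7% in WT, means of 62.5% ± 5.3 and 47.0% ± 3.3 (SD, n = 3) without overlap (exact permutation test, two-sided, p = 0.1, the smallest that 3 against 3 can give). Membrane Ighm measured 114, 115 and 68.8 CPM in TCF-1 cKO and 209, 227 and 182 CPM in WT (p = 0.1, same exact test). Secreted Ighm overlapped, at 213, 150 and 134 CPM in TCF-1 cKO against 166, 195 and 187 CPM in WT (p = 0.6, same exact test). The lower Ighm of the TCF-1 cKO libraries thus lay in the transcript assigned to the membrane form.

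Ighg2b was near the limit of detection at day 7. It had 16, 8 and 11 counts (0.862, 0.436 and 0.449 CPM) in TCF-1 cKO and 1, 14 and 6 counts (0.0307, 0.498 and 0.331 CPM) in WT, and the genotypes overlapped. For every 1000 counts of the other 8 genes there were 1.77, 1.16 and 1.36 counts of Ighg2b in TCF-1 cKO and 0.0688, 0.973 and 0.689 in WT. The log2 ratio was -9.35 ± 0.27 in TCF-1 cKO and -11.0 ± 1.6 in WT (SD, n = 3), a difference of 1.66 (exact permutation test, two-sided, p = 0.1, the smallest possible). That gap lay in the opposite direction to the one before transplant and leaned on WT replicate 1 with its single count: without it the difference was 0.75 (p = 0.2, same exact test), against 2.02 without the library labelled WT replicate 3 and 1.77 without TCF-1 cKO replicate 2. It was 0.39 with Igkc as the denominator (p = 0.8, exact) and 0.39 in TPM (p = 0.7, exact). Over Cd79a, Cd79b and Ms4a1 the log2 ratio was -5.29 ± 0.32 in TCF-1 cKO and -6.94 ± 1.34 in WT (SD, n = 3), without overlap. Over the other 8 genes the TCF-1 cKO ratios all lay above the WT ones, and 3 libraries against 3 cannot give a p under 0.1, so the test could not have called this difference.

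**Figure D5:**
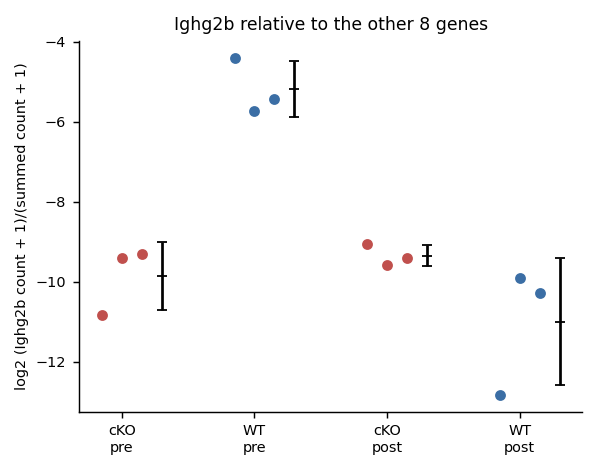
Log2 ratio of Ighg2b to the summed counts of the other 8 genes in every library (points), with the mean and SD of each group (bars beside them); 1 count was added to each side and cKO is TCF-1 cKO. The WT pre-transplant libraries lay at -5.74 to -4.40, above all others, which lay between -12.8 and -9.06.

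V segment transcripts were sparse at day 7. Ighv genes summed to 119 to 314 counts (4.23 to 12.9 CPM) in the 6 libraries, against 627 to 2171 CPM before transplant, and Igkv genes to 158 to 419 counts (8.61 to 17.1 CPM), against 1689 to 4058 CPM. At day 7 Ighm, at 203 to 422 CPM, thus had a far higher CPM than all Ighv genes together, with the WT libraries at 4.23 to 10.6 CPM of Ighv and the TCF-1 cKO libraries at 9.43 to 12.9 CPM. Before transplant Ighm, at 4679 to 10594 CPM, was above the Ighv sums as well. CPM is not scaled for transcript length, so these values are not numbers of transcripts. Other class-switched genes were at or below 8.71 CPM in each post-transplant library, the highest being Igha in WT replicate 2. That library also had the highest Cd79a, Ighd and MHC class II values of the 6.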

How the data were processed

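Total RNA of sorted T cells was made into SMART-Seq HT cDNA and Nextera XT libraries and sequenced paired-end. The authors pseudoaligned each library with Kallisto 0.46.2 and deposited, per Ensembl transcript, an estimated count and a TPM; the transcript release is not given in the sources used here, and the submitters' processing notes list build mm9 without a role. Of 117497 transcripts, 116374 were matched by identifier to 35855 genes of GENCODE M21 (GRCm38), which also gave positions and sequences, and the deposited lengths of the transcripts described were the same. Estimated counts were summed per gene and rounded; TPM was summed. The annotated genes that overlap members, Gm30211 (Igkc) and the antisense 4930526L06Rik (Ms4a1), were not in the tables. Cd79a shares 174 of its 31-base words with Gm32220.

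Genes were tested per comparison with edgeR 4.0.16 (TMM scaling, filterByExpr, quasi-likelihood test, Benjamini-Hochberg FDR of 0.1) in R 4.3.3, on the 6 libraries concerned; the study itself used limma-voom at the same FDR. Ratios were compared by exact permutation in SciPy 1.17.1. Alternatives used limma 3.58.1, DESeq2 1.42.0, other scalings, filters, offsets and omitted libraries. On data simulated for the 16026 genes of the day 7 genotype comparison, edgeR recovered 14% of genes changed 4-fold and 93% of those changed 32-fold. The design text names 3 mice per genotype before transplant; separate recipients are not stated for the post-transplant libraries, so p-values there measure only the spread between these samples, which may be technical. Intervals cover counting error only.

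The 9 genes are always described in all 12 libraries; of other lists, counts and ranges with few genes named, the 5 genes most correlated with Ighg2b and with the sum of the others, the leading V genes, and Tcf7, Cd8a and Cd4 as checks. Derl3, Fkbp11, Prdm1, Slamf7, Edem2, Cxcr5, H2-Ab1, Lyz2 and Vpreb3 were named after their values were seen. Of the genes that ran most like the sum, 1 is not reported here. The members and lists were chosen with earlier results of these data known.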

Additional observations from a re-analysis of the deposited data

How the results depend on the processing

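The number of members called between genotypes at day 7 was 0 by edgeR and 2 by the DESeq2 Wald test. Over all genes, DESeq2 called 3456 lower and 1069 higher of 16026. A fit over all 12 libraries called 1 member, and 2250 genes lower and 789 higher of 21526. With a library left out the number of members was 0 to 2. The 2 were Ighm and Ighd when the library labelled WT replicate 3 was omitted, where 3531 genes were lower and 1768 higher of 18183. Voom, other scalings and filters, and the GC and length offset gave 0. The stage counts stayed at 7 or 8 of 8, the loss being Ighg2c in each case, for which DESeq2 gave no adjusted p. The pre-transplant difference in the Ighg2b ratio ran from -5.02 to -4.17 over all alternatives, and the one at day 7 from 0.39 to 2.21. Uncalled changes that turned sign at day 7 were Ighg2c (-0.29), which was 0.12 with library totals, 0.62 with the GC and length offset and 0.035 in the fit over 12 libraries, and from -1.48 to 0.29 with a library left out; Igkc, -0.17 with the offset; Cd79b, 0.12 with it; Ms4a1, -1.04 with it and from -0.051 to 0.81 with a library left out; and Jchain, -0.67 with it and from -0.37 to 0.45 with a library left out. The cause was not tested.

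Replicate numbers did not pair the samples: deviations of same-numbered libraries correlated at -0.094 to 0.114. With the replicate block, 0 members were called between genotypes at day 7, 7 of 8 at day 7 against pre-transplant in WT (Ighg2c at -3.66) and 8 of 8 in TCF-1 cKO, and the Ighg2b ratio at day 7 had an exact p of 0.25. With block and offset together, Ighg2c was 0.25, Igkc -0.15, Cd79b 0.15, Ms4a1 -0.69 and Jchain -0.74 between genotypes at day 7. The genes called over all features in that comparison fell from 2465 lower and 403 higher to 605 and 148 with the offset, and to 0 and 2 with block and offset.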

Other observations

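Plasmacytoid dendritic and NK markers also moved with the pre-transplant libraries. Siglech, a gene of plasmacytoid dendritic cells, stood at 4.56 to 18.2 CPM in TCF-1 cKO against 61.2 to 94.7 CPM in WT libraries before transplant, without overlap, and at 0.154 to 3.39 CPM at day 7. It was not called before transplant, where 6.33% of all genes tested had TCF-1 cKO libraries wholly below WT. Ncr1 and Klrb1c of NK cells summed to 33.9 to 140 CPM before transplant and to 4.94 to 16.2 CPM at day 7. Iglv counts were led by Iglv1 in 5 of the 6 pre-transplant libraries and by Iglv2, at 67.7% of Iglv counts, in WT replicate 1, the library with the highest Ighg2b and Ighg3. Ighe, the constant gene of IgE, was at or below 1.27 CPM in every library.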
